A study of Mus musculus with 6 samples.

Results

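Wound macrophages with Arg1 and Mmp12 were the myeloid cells of the mouse skin wound that carried transcripts of the arginase Arg1 or the metalloelastase Mmp12 and almost none of complement C1q. They were chosen from measured unique molecular identifier (UMI) counts in 3 droplet libraries. Cells were kept with 300 or more genes, fewer than 100000 UMIs and less than 10% of their UMIs from mitochondrial genes. A member also had at least 5 UMIs of Arg1 and Mmp12 together, at least 5 UMIs of Lyz2, under 5 UMIs of C1qa, C1qb and C1qc together, 0 UMIs of Cxcr2 and under 0.5% of its UMIs from Col1a1, Col1a2 and Col3a1. The rule took 511 of 11032 kept wound cells, and of 35083 kept cells in all 6 libraries of the series. Because these values chose the cells, all levels below are descriptions without a test.

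The wounds were full-thickness excisions held open by a splint, 6 mm wide with 2 per animal, on wild-type C57BL/6J mice aged 6 weeks, of either sex by the study's methods. Each wound received a hydrogel of collagen and pullulan. In the control DC wounds the gel carried control bone marrow dendritic cells (DCs), which the labels call untreated and the study's methods describe as nucleofected with Cas9 and 3 non-targeting guides. In the Ndrg2-KO DC wounds the gel carried DCs nucleofected with Cas9 and 3 guides against Ndrg2, and in the blank wounds it carried no cells. The tissue of 5 mice per group was taken on day 10, and each group was 1 library, so no spread between wounds could be measured and a difference between groups cannot be told apart from a difference between libraries. All 3 groups shared the host strain, the splint and the gel.

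Macrophages in a healing wound arise largely from blood monocytes and pass through inflammatory states before they take on repair functions. Arginase 1 turns arginine into ornithine and urea and competes for this substrate with the inducible nitric oxide synthase Nos2. Matrix metalloproteinase 12 is the macrophage elastase, and C1q is a complement subunit made by mature tissue macrophages.

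Several of the genes described here lie in 2 clusters. On chromosome 9, Mmp13 (7272514-7283333), Mmp12 (7344397-7360461) and Mmp8 (7558429-7568486) follow each other, the start of Mmp12 lying 71.9 kb from that of Mmp13. On chromosome 5, Ppbp (90768518-90770063), Cxcl3 (90786101-90788093), Cxcl1 (90891245-90893121) and Cxcl2 (90903899-90905938) follow each other. The 250 bases before the start site are shown for Mmp12 and Mmp13 and for the chemokine genes Cxcl2 and Cxcl3, as examples of windows that hold the letters searched, from RefSeq on GRCm38.p6, all on the plus strand. Capitals mark TGANTCA, the letters bound by activator protein 1 (AP-1), or GGG and TTTCC parted by 2 bases, the letters bound by nuclear factor kappa B (NF-kB).
Mmp12, chr9:7347124-7347373, downstream start site: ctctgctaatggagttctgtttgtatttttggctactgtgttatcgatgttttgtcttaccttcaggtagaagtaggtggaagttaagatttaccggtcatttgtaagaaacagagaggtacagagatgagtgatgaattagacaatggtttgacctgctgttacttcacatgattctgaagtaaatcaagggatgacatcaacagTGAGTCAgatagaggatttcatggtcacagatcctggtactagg
Mmp13, chr9:7272264-7272513: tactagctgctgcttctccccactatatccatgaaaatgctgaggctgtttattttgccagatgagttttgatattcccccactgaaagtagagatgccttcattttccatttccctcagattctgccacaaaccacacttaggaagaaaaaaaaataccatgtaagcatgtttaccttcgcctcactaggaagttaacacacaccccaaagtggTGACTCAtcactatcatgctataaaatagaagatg
Cxcl2, chr5:90903649-90903898: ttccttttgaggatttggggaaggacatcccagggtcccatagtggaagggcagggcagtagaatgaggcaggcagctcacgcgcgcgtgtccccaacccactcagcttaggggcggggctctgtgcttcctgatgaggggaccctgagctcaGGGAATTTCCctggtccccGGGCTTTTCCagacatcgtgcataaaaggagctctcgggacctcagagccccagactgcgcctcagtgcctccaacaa
Cxcl3, chr5:90785851-90786100: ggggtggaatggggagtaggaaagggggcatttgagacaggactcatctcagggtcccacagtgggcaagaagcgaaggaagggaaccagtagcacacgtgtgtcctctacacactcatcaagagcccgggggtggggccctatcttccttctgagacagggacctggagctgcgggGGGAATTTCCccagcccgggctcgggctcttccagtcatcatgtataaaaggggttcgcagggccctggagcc

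The AP-1 letters began 44 bases before the start site in Mmp12 and 35 bases before it in Mmp13. The NF-kB letters began 97 and 78 bases before the start site in Cxcl2 and 73 bases before it in Cxcl3. On both strands of all 32851 RefSeq promoter windows of 300 bases, 7.81% held the AP-1 letters and 1.63% held the NF-kB letters. Of the 19 genes with a window, 7 held the AP-1 letters (Mmp12, Mmp13, Ppbp, Il1a, AA467197, Stfa3 and F3) and 3 held the NF-kB letters (Cxcl1, Cxcl2 and Cxcl3), while F7, Mmp8, Il1b, Tnf, Ccl3, Inhba, Ctsk, F10 and Spp1 held neither. The letters TTNNGCAA of CCAAT/enhancer-binding proteins (C/EBP) and TATAAA of the TATA box were searched too. They were held by 5 and 11 of the 19 genes, and by 10.8% and 13.6% of all windows. A match is a description of these letters and not of binding. The upstream start site of Mmp12 held no TGANTCA in its window. The table held 19 of 26 genes looked up. Arg1 spans chr10:24915221-24927484 and Nos2 spans chr11:78920787-78960254 in GENCODE M21.

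Depth differed between the libraries. The median kept cell held 10795, 4415 and 5603 UMIs in the control DC, Ndrg2-KO DC and blank wounds, while the median Arg1 Mmp12 macrophage held 10828, 10860 and 11943, so these cells were of like depth in the 3 libraries. Their sums were 529779, 3632247 and 1880156 UMIs, and the control DC values rest on the fewest cells. The 10 macrophage markers summed to 8109, 6738 and 7247 CPM (UMIs per 1000000 UMIs of the summed cells), against 11888, 10744 and 11236 CPM in C1q macrophages and 4636, 5963 and 5859 CPM in the remaining cells. All 10 were detected in each of these classes, so their detection alone does not set these cells apart. Csf1r, the receptor for macrophage colony-stimulating factor, had 347, 327 and 382 CPM. The 7 platelet markers used, which leave out Ppbp, summed to 0, 0.275 and 0.532 CPM, with 7, 6 and 6 of them at 0, and the B cell markers were at 0. The 7 T and NK cell markers summed to 0, 40.2 and 6.38 CPM, with 7, 0 and 3 of them at 0, and the 5 endothelial markers summed to 15.1, 57.0 and 26.1 CPM, with 2, 1 and 1 at 0, so both were highest in the Ndrg2-KO DC wound. The 7 neutrophil markers summed to 383, 2579 and 723 CPM, with 2, 1 and 2 of them at 0, and in C1q macrophages of the same libraries they summed to 155, 1003 and 482 CPM. The erythroid markers summed to 88.7, 5323 and 277 CPM. The part of these other cell types' RNA in the differences between wounds was not tested. At least 5 UMIs of S100a8 and S100a9, which encode a calcium-binding protein abundant in neutrophils and also made by monocytes, were held by 5 (11.9%), 183 (56.5%) and 49 (33.8%) of the Arg1 Mmp12 macrophages, and some differences between wounds are therefore also given without these cells, called S100-rich. Doublet scores in the top 6% of a library were held by 3, 18 and 7 of the cells. The libraries shared 2, 2 and 3 cell barcodes in pairs. The Y-linked genes Ddx3y, Eif2s3y and Uty had 0 UMIs in the Arg1 Mmp12 macrophages of every library and Kdm5d had 0, 0 and 1, while Xist had 280, 1859 and 868 UMIs. The series' own description speaks of parabiosis and of a sort for GFP, but eGFP had 0, 1 and 0 UMIs over all barcodes of the 3 libraries. Whether a sort shaped the shares of cells given next was not tested. Ndrg2 itself had 0 UMIs in these cells in all 3 libraries, so it does not check the labels here.

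Arg1 Mmp12 macrophages made up 42 of 1948 kept cells in the control DC wound, or 2.16% (exact 95% binomial interval 1.56 to 2.90%, counting error only). They made up 324 of 5681 cells in the Ndrg2-KO DC wound, or 5.70% (5.11 to 6.34%), and 145 of 3403 cells in the blank wound, or 4.26% (3.61 to 4.99%). None of the 3 intervals overlapped. As a share of the cells with at least 5 Lyz2 UMIs, no Cxcr2 UMI and under 0.5% collagen UMIs, they were 6.19% of 679, 19.7% of 1648 and 12.5% of 1157 cells. The order of the wounds was the same by this denominator.

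**Figure D1:**
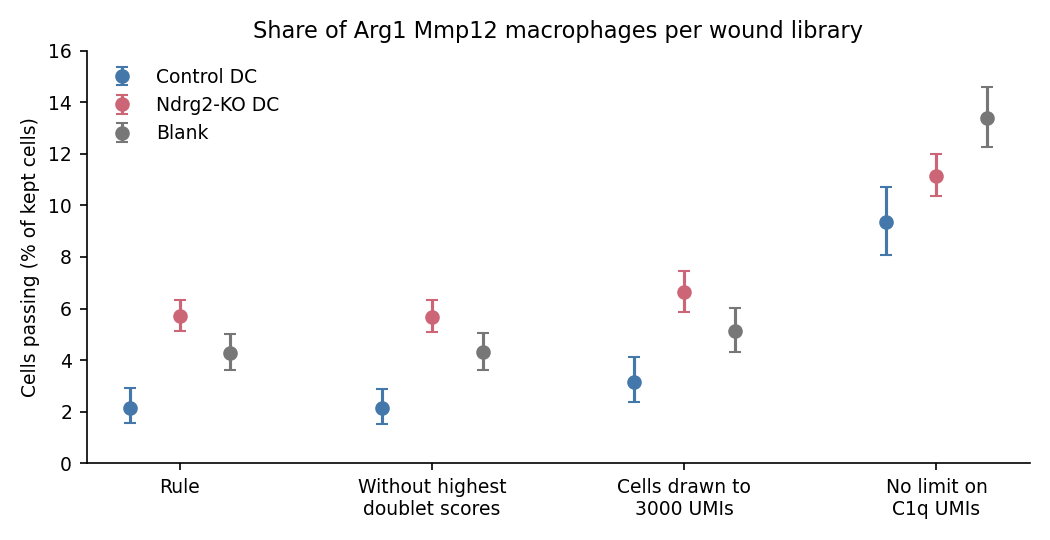
Share of kept wound cells that passed the rule (y axis, percent) in each wound library, with exact 95% binomial intervals, and the same share under other settings of the rule. The control DC wound was lowest under each setting, and with no limit on C1q the blank wound was highest at 13.4%.

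This order rested on the C1q limit. When C1q was left out of the rule, 182, 634 and 456 cells passed, or 9.34% (8.09 to 10.7%), 11.2% (10.4 to 12.0%) and 13.4% (12.3 to 14.6%), and the blank wound was then highest. Cells with Arg1 or Mmp12 held a wide range of C1q. The median was 25.5 UMIs in the control DC wound, 3.5 UMIs in the Ndrg2-KO DC wound and 23 UMIs in the blank wound. No C1q UMI at all was found in 25, 222 and 87 of them. The Ndrg2-KO DC wound thus had more of these cells without C1q, while 140, 310 and 311 of them had at least 5 C1q UMIs. When each cell was drawn to 3000 UMIs and the rule was applied again, the shares were 3.16%, 6.65% and 5.11%, against 2.51%, 8.11% and 5.22% in the same cells undrawn.

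**Figure D2:**
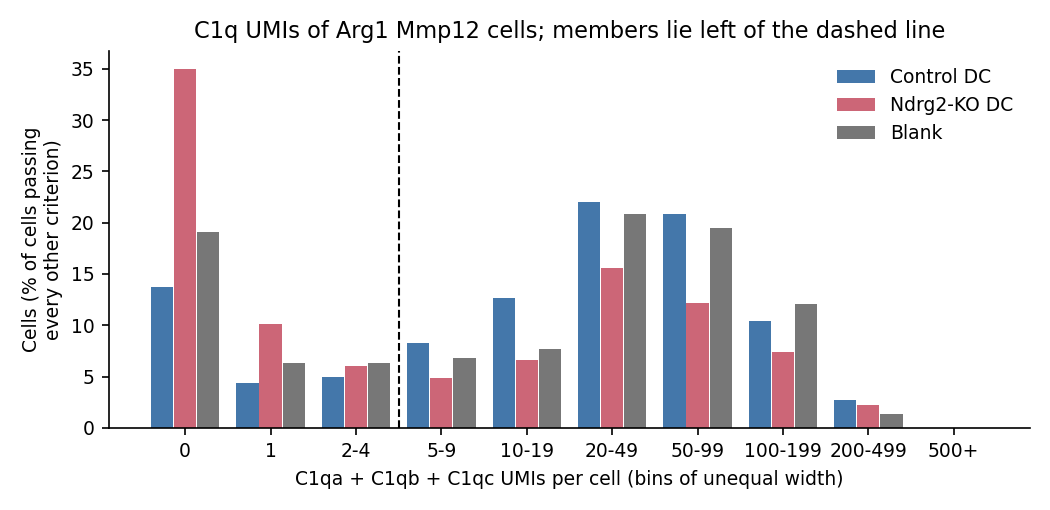
Cells that passed every step of the rule apart from the C1q limit (dashed line), by their summed C1qa, C1qb and C1qc UMIs (x axis, bins) and as a share of these cells in each library (y axis, percent). Cells with 0 C1q UMIs numbered 25 of 182 in the control DC wound, 222 of 634 in the Ndrg2-KO DC wound and 87 of 456 in the blank wound.

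At 5 UMIs of Arg1 and Mmp12 lay 8 members, and 11 cells were left out at 4. At 5 UMIs of Lyz2 lay 15 members, and 17 cells were left out at 4. At the C1q limit lay 19 members with 4 UMIs, and 16 cells were left out at 5. Among cells that passed every other step, a Cxcr2 UMI left out 0, 35 and 7 cells in the control DC, Ndrg2-KO DC and blank wounds, and fewer than 5 Lyz2 UMIs left out 16, 101 and 9. By number both limits removed the most cells from the Ndrg2-KO DC wound, which also had the most members (42, 324 and 145). Relative to its members, the control DC wound lost the most cells to the Lyz2 limit. Of the members, 334 of 511 had no C1q UMI.

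Arg1 was the more widely held of the 2 defining genes. The median Arg1 Mmp12 macrophage held 21.5, 43.5 and 26 Arg1 UMIs in the control DC, Ndrg2-KO DC and blank wounds, with maxima of 329, 260 and 266. For Mmp12 the medians were 8, 5 and 0 UMIs, with maxima of 810, 756 and 580. Mmp12 was thus concentrated in fewer cells. The tenth of cells with most Mmp12 held 61.0%, 62.1% and 77.9% of its UMIs, against 48.8%, 30.0% and 35.8% for Arg1. Both genes were found in 22 (52.4%), 199 (61.4%) and 62 (42.8%) cells, Arg1 alone in 17, 116 and 73 cells, and Mmp12 alone in 3, 9 and 10 cells. Across the cells of a library, log2(CPM + 10) of the 2 genes had Pearson correlations of -0.00353, 0.067 and -0.146, over 42, 324 and 145 cells that share a library and were chosen on the sum of both genes.

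**Figure D3:**
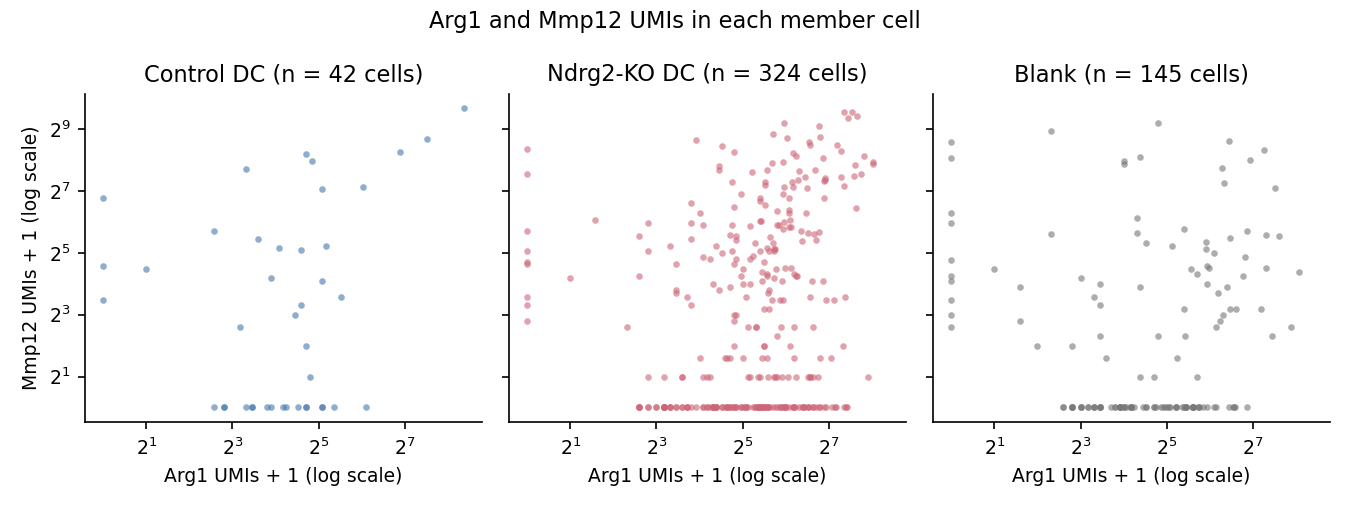
Arg1 UMIs (x axis) and Mmp12 UMIs (y axis) of each Arg1 Mmp12 macrophage, 1 panel per wound library, both axes log-scaled after 1 was added. Cells with both genes numbered 22, 199 and 62, and 206 cells over the 3 libraries held Arg1 without Mmp12.

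Few genes set cells with both genes apart from cells with Arg1 alone. Of 5044 genes, 39 differed at least 2-fold the same way in all 3 libraries (0.773%), 28 higher (0.555%) and 11 lower (0.218%) in cells with both, with Mmp12 among them by construction. By list, 3 of 11 proteases and inhibitors were higher in cells with both (Mmp12 included), as were 2 of 23 lysosome and proton pump genes, and 1 of 15 chemokines, 1 of 11 monocyte genes and 1 of 5 resident macrophage genes were lower. Mmp13, the interstitial collagenase, had 314, 1452 and 215 CPM in cells with both and 10.5, 91.4 and 46.5 CPM in cells with Arg1 alone. Atp6v0d2, a subunit of the vacuolar proton pump first known from osteoclasts, had 125, 61.3 and 61.0 against 15.7, 2.43 and 11 CPM. The bone-resorbing cathepsin Ctsk had 297, 319 and 561 against 31.4, 129 and 50.1 CPM. Mmp8, also among the neutrophil markers used above, was likewise higher in cells with both, at 226, 461 and 417 against 52.3, 74.4 and 33.0 CPM. The cationic amino acid transporter Slc7a2, which imports arginine, had 469, 391 and 296 against 188, 180 and 70.9 CPM. Tissue factor F3, which starts coagulation, had 67.5, 114 and 15.5 against 5.23, 20.2 and 4.89 CPM, and the peroxidase Prdx1 had 1945, 3472 and 3028 against 607, 1235 and 1228 CPM. The listed genes that were higher in cells with Arg1 alone were Ccr2, Ccl7 and Selenop. The chemokine receptor Ccr2 had 220, 112 and 183 CPM in them and 13.5, 29.3 and 49.9 CPM in cells with both, its ligand Ccl7 had 356, 336 and 304 against 3.38, 166 and 99.8 CPM, and the selenium carrier Selenop had 361, 154 and 176 against 149, 72.7 and 49.9 CPM.

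The 6 marker genes did not all set these cells apart. Against C1q macrophages of the same library, defined by the same gates with at least 5 C1q UMIs (557, 957 and 753 cells), Arg1, Mmp12 and Mmp13 were at least 2-fold higher in all 3 libraries. Arg1 had 2697, 4904 and 3319 CPM against 538, 1141 and 1324 CPM, and Mmp12 had 5599, 5144 and 2733 against 936, 984 and 613 CPM; both were part of the rule. Mmp13 was not, and had 179, 947 and 123 against 39.7, 149 and 49.3 CPM, log2 ratios of 2.17, 2.67 and 1.32. The coagulation factor F7 had 121, 103 and 107 against 46.7, 40.3 and 61.8 CPM, which stayed under 2-fold in the blank wound. Atp6v0d2 lay at 75.5, 44.0 and 45.2 against 78.0, 43.2 and 52.7 CPM and so differed little between them. Of the C1q macrophages 25.1%, 32.4% and 41.3% also held at least 5 UMIs of Arg1 and Mmp12. Against only those with fewer, the median log2 ratio over the libraries was 1.37 for Atp6v0d2 in place of -0.046, 5.62 for Mmp13 in place of 2.17, 2.77 for F7 in place of 1.35 and 8.97 for Nos2 in place of 3.13, and 147 of 319 genes moved by more than the range over libraries, so the ratios to C1q macrophages given here depend on that choice. Ppbp, a chemokine stored in platelets, was found in only 2.38%, 5.56% and 9.66% of the cells, and 1 cell held 100%, 25.8% and 66.9% of its UMIs.

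Over all genes, 709 of 9650 differed at least 2-fold in the same direction in all 3 libraries between Arg1 Mmp12 and C1q macrophages (7.35%), 152 higher (1.58%) and 557 lower (5.77%). The median gene had a log2 ratio of -0.19, taken over the 3 libraries. Of 14 genes of arginine use and alternative activation, 4 were higher and 3 lower, with a median of -0.34. The rule chose the cells on Arg1, and without it 3 of 13 were higher and 3 lower, with a median of -0.66. Nos2 had 143, 542 and 147 CPM against 5.04, 61.9 and 29.0 CPM in C1q macrophages, log2 ratios of 4.83, 3.13 and 2.34, so the class chosen for Arg1 or Mmp12 also held more of the competing synthase. In the control DC wound a single Arg1 Mmp12 macrophage held most of the Nos2 UMIs. Slc7a2 had 330, 310 and 178 against 43.5, 46.7 and 35.8 CPM. Of the genes classically tied to alternative activation, the chitinase-like Chil3 was higher at 1769, 845 and 522 against 198, 261 and 173 CPM. The mannose receptor Mrc1 was lower at 561, 130 and 322 against 1528, 1347 and 1341 CPM. The haemoglobin scavenger receptor Cd163 was nearly missing, at 3.78, 0.826 and 2.13 against 417, 278 and 254 CPM.

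**Figure D4:**
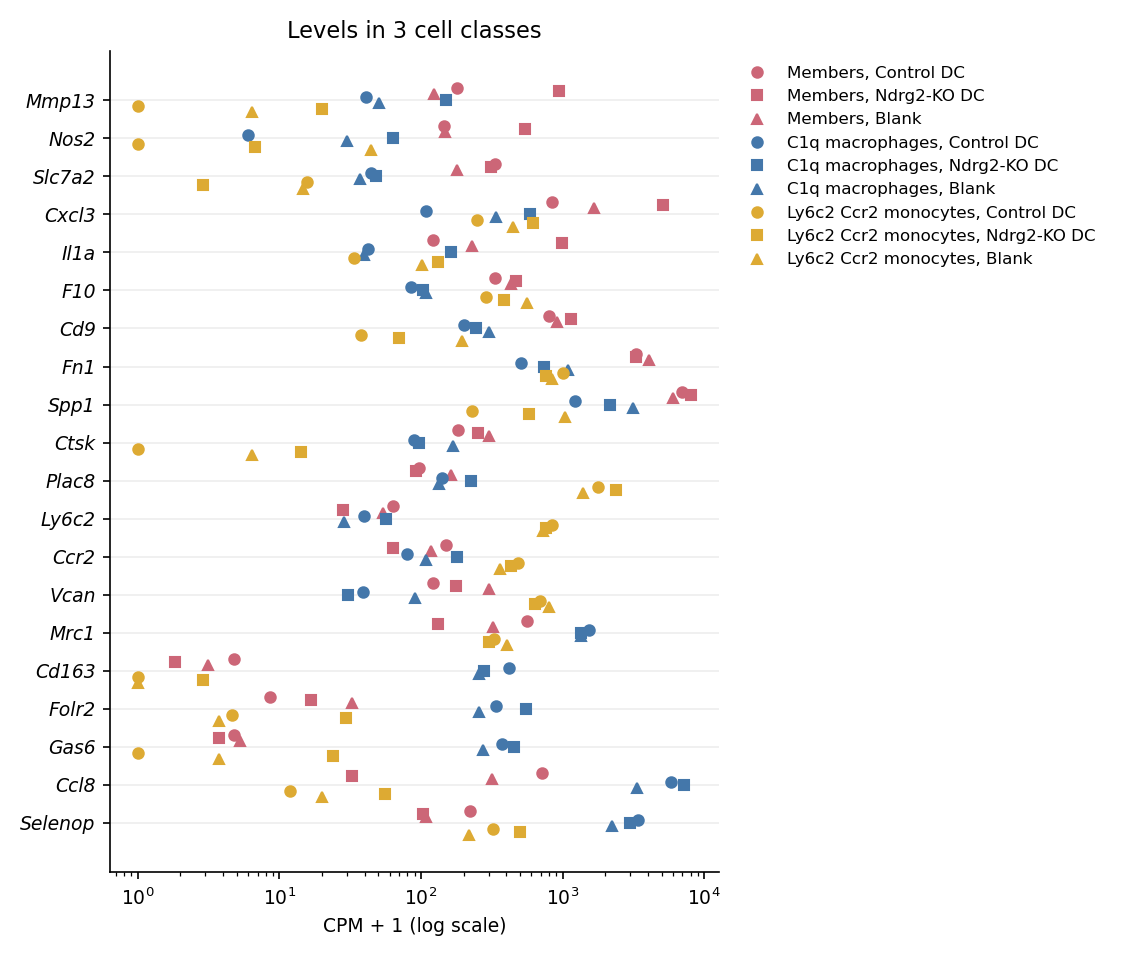
CPM + 1 (x axis, log scale) of 20 genes (y axis) in Arg1 Mmp12 macrophages (members), C1q macrophages and Ly6c2 Ccr2 monocytes, with 1 point per class and wound library. Mmp13, Nos2 and Slc7a2 lay highest in Arg1 Mmp12 macrophages in each library, Cd163, Folr2 and Gas6 in C1q macrophages, and Plac8 and Ly6c2 in the monocytes.

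Genes of resident macrophages were lower as a group, with 11 of 12 at least 2-fold lower in all 3 libraries. The folate receptor Folr2 had 7.55, 15.7 and 31.4 against 338, 550 and 256 CPM. The growth arrest protein Gas6, a bridge to apoptotic cells, had 3.78, 2.75 and 4.25 against 370, 453 and 275 CPM, and Selenop had 219, 103 and 107 against 3420, 3005 and 2234 CPM. The transcription factor Maf, a driver of C1q expression, had 94.4, 149 and 108 against 571, 533 and 437 CPM. The low C1q of these cells was chosen by the rule, whereas these genes were not. The lipid carrier Apoe was lower too, at 4334, 1460 and 1694 against 18363, 16061 and 11518 CPM.

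Of 20 cytokines and growth factors, 6 were higher and 4 lower than in C1q macrophages, with a median of 0.36. Interleukin 1 beta (Il1b) had 1880, 6200 and 1874 against 411, 1199 and 526 CPM, and interleukin 1 alpha (Il1a) had 121, 988 and 228 against 41.2, 161 and 38.4 CPM. Inhba, the activin A subunit, had 357, 1690 and 196 against 126, 236 and 46.4 CPM. The tumour necrosis factor gene Tnf had 800, 1897 and 735 against 373, 582 and 300 CPM, and the EGF receptor ligand Ereg had 26.4, 219 and 51.6 against 1.97, 14.2 and 20.0 CPM. In the control DC wound a single cell held most of the Tnf UMIs, so the Tnf difference there rests largely on that cell. The 4 lower genes were Il10, Pdgfc, Igf1 and Gdf15. Among 17 chemokines, Cxcl1 and Cxcl3, which attract neutrophils, were higher and Ccl2, Ccl7, Ccl8 and Ccl12, which attract monocytes, were lower. Cxcl3 had 834, 5155 and 1672 against 107, 590 and 340 CPM, whereas Ccl7 had 132, 220 and 181 against 1830, 1644 and 993 CPM.

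Proteases and coagulation genes were mixed. Of 15 proteases and inhibitors, 4 were higher (Mmp12, Mmp13, Mmp8 and the urokinase receptor Plaur) and 1 was lower (the inhibitor Timp2), with a median of 0.87. The rule chose the cells on Mmp12, and without it 3 of 14 were higher, with a median of 0.46. Mmp8, which is also among the neutrophil markers used above, had 145, 315 and 218 against 26.6, 29.1 and 30.9 CPM. Of 15 coagulation and fibrinolysis genes, F10, Serpinb2 and Plaur were higher and Serpinb6a was lower, with a median of 0.99. In the control DC wound a single cell held most of the Serpinb2 UMIs. Coagulation factor X (F10) had 330, 471 and 429 against 83.5, 102 and 107 CPM. The provisional matrix protein fibronectin (Fn1) was higher at 3294, 3282 and 4070 against 504, 740 and 1086 CPM. Osteopontin (Spp1) had 6933, 8092 and 6055 against 1215, 2155 and 3148 CPM, under 2-fold in the blank wound.

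Of 21 genes of glycolysis and hypoxia, 7 were higher (Slc2a1, Gapdh, Pgk1, Eno1, Egln3, Bnip3 and Ero1l) and none lower, with a median of 0.97. The oxygen sensor Egln3 had 56.6, 132 and 80.3 against 9.96, 20.2 and 26.7 CPM. Of 24 lysosome and proton pump genes, 0 were higher and 1 was lower, and of 7 MHC class II genes none was past 2-fold in all 3 libraries (medians -0.32 and -0.79). Of 19 scavenger and pattern receptors, 6 were higher and 1, the scavenger receptor Marco, was lower, with a median of 0.56. The higher ones were the C-type lectins Clec4e and Clec5a, the oxidised lipid receptor Olr1, the formyl peptide receptors Fpr1 and Fpr2 and the amplifier of inflammation Trem1. Clec4e had 440, 1150 and 895 against 193, 382 and 337 CPM. Of 12 monocyte genes, 6 were higher than in C1q macrophages, Vcan, Chil3, Fn1, S100a4, Hp and F10, so Arg1 Mmp12 macrophages lay between the C1q macrophages and the monocytes in Vcan, a large proteoglycan, at 121, 176 and 303 CPM against 38.0, 29.5 and 89.3 CPM in C1q macrophages and 686, 638 and 794 CPM in the monocytes described next. Of the genes with the highest ratio over all genes, the cystatin Stfa3 had 20.8, 134 and 77.1 against 0.123, 3.49 and 1.53 CPM. AA467197, a small mitochondrial protein also known as Nmes1, had 831, 1116 and 738 against 112, 172 and 103 CPM.

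Against Ly6c2 Ccr2 monocytes, of which there were only 23, 56 and 36 cells, 364 of 5619 genes differed at least 2-fold in all 3 libraries (6.48%), 267 higher (4.75%) and 97 lower (1.73%). All 6 marker genes were higher, Arg1 at 29.2, 22.8 and 49.0 CPM and Mmp12 at 7.30, 15.2 and 8.16 CPM in the monocytes. Arg1 and Mmp12 were kept low there by the definition of the class. Ppbp had 0 UMIs in the monocytes of all 3 libraries, and against 3 UMIs in the monocytes of the same library its level in Arg1 Mmp12 macrophages was at least 7.58-fold, 3.0-fold and 17.5-fold higher, with the single cells named above holding much of it. By the same limit Ereg was at least 2.41-fold, 38.5-fold and 6.32-fold and the fusion gene Dcstamp at least 1.72-fold, 4.54-fold and 2.67-fold higher. These limits also grow with the UMI total of the monocytes, so they are not compared between wounds. Of 15 lipid-associated genes, 11 were higher and none lower, among them the tetraspanin Cd9 with 800, 1145 and 911 against 36.5, 68.3 and 193 CPM. Of 12 monocyte genes, 6 were lower and 1, Fn1, was higher. Ly6c2 had 62.3, 27 and 52.7 against 840, 761 and 721 CPM, Ccr2 had 149, 62.8 and 116 against 482, 433 and 359 CPM, and both were part of the monocyte definition. Plac8, which was not, had 96.3, 91.7 and 161 against 1771, 2375 and 1387 CPM. Il1b had 3316, 5429 and 2989 CPM in the monocytes. Arg1 Mmp12 macrophages lay below this in the control DC and blank wounds and above it in the Ndrg2-KO DC wound, each by under 2-fold.

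Between wounds, 367 of 4136 genes differed at least 2-fold between the Ndrg2-KO DC wound and the control DC wound within Arg1 Mmp12 macrophages (8.87%), 259 higher (6.26%) and 108 lower (2.61%). Without the cells rich in S100a8 and S100a9, 269 of the 367 stayed past 2-fold in the same direction, and without the member with the most UMIs of each gene in each library 308 did. The 269 include genes that fell under the minimum of UMIs once those cells were left out. They are thus not on the same basis as the total without the S100-rich cells given further below. The median gene had a log2 ratio of -0.0080. The split moved to 310 higher and 80 lower under median-ratio scaling. Leaving out the top member takes 1 of 42 cells in the control DC wound and 1 of 324 in the Ndrg2-KO DC wound, so by construction it lowers the control sum more and shifts ratios to control upward, and values without the top cells are given only where 1 cell held most of a gene's UMIs. Intervals below are exact 95% intervals of the log2 ratio and cover counting error only.

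Of 16 cytokines and growth factors, 9 were at least 2-fold higher in the Ndrg2-KO DC than in the control DC wound and none lower, and 3 of the 9 were past 2-fold in C1q macrophages too. Under every alternative 5 of the 9 had a value and stayed past 2-fold, while Il10 and Ereg fell under the minimum of UMIs in some. The median of the list was 1.18. Il1b had 1880, 6200 and 1874 CPM in the control DC, Ndrg2-KO DC and blank wounds, a log2 ratio of 1.72 (1.63 to 1.81) to the control DC wound and 1.73 to the blank wound. The control DC and blank wounds were thus alike in level and the Ndrg2-KO DC wound stood apart, as it did in C1q macrophages (411, 1199 and 526 CPM). Il1a had 121, 988 and 228 CPM, a log2 ratio of 3.03 (2.68 to 3.41) to control and of 2.12 to blank. Inhba, at 357, 1690 and 196 CPM, had 2.24 (2.04 to 2.46) and 3.11 (2.96 to 3.27). Each of these 3 genes was thus highest in the Ndrg2-KO DC wound. Without the S100-rich cells the ratios to control were 1.81 for Il1b, 3.6 for Il1a and 2.24 for Inhba. Tnf, at 800, 1897 and 735 CPM, had 1.25 (1.10 to 1.39) to control. In the control DC wound 59.9% of the Tnf UMIs lay in 1 cell, and the ratio was 2.51 without the top cells and 0.85 without the S100-rich cells. Interleukin 6 (Il6) was at 7.55, 118 and 13.8 CPM, and its control DC level rests on very few UMIs.

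The higher levels were spread over many cells. With each cell drawn to 1000 UMIs, Il1b was found in 21.4%, 78.4% and 40.0% of Arg1 Mmp12 macrophages, and in 0.971%, 5.99% and 3.03% of T cells of the same libraries, which should lack it. The median T cell held 6672, 5072 and 6185 UMIs before drawing. Undrawn, the shares were 54.8%, 92.3% and 73.8%. Il1a was found in 11.9%, 46.0% and 15.9% of drawn cells and in 0%, 0.599% and 0% of T cells. For Nos2 the drawn shares were 7.14%, 33.0% and 8.97%, and 0% of the 103, 167 and 66 T cells, with exact upper limits of 3.52%, 2.18% and 5.44%, held it. These T cells were chosen with no Lyz2 UMI, which can lower their share of other macrophage genes. Without that condition there were 126, 232 and 92 T cells, and 1.59%, 9.52% and 9.78% of those drawn held Il1b, 0%, 1.73% and 2.17% held Il1a and 0.794%, 0.433% and 0% held Nos2, all below the shares in Arg1 Mmp12 macrophages of the same wound. S100a9, by contrast, was found in 2.38%, 15.7% and 4.14% of drawn cells and in 3.88%, 13.2% and 6.06% of T cells, and the haemoglobin gene Hbb-bs in 4.76%, 15.4% and 6.21% against 9.71%, 17.4% and 6.06%. Among T cells with any number of Lyz2 UMIs the shares were 5.56%, 13.85% and 10.87% for S100a9 and 7.94%, 17.75% and 7.61% for Hbb-bs. For S100a9 and Hbb-bs the shares in Arg1 Mmp12 macrophages were thus near or below those in T cells. The source of these UMIs was not tested.

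Of 15 chemokines, 8 were higher and 2 lower in the Ndrg2-KO DC wound than in the control DC wound, with a median of 1.02. Under every alternative 5 of the 8 stayed past 2-fold. Of the 2 lower genes, Ccl8 did not, and Ppbp did under each alternative that left it enough UMIs for a value. Ccl3 and Ccl4, the macrophage inflammatory proteins, had 157, 2156 and 490 CPM and 58.5, 2010 and 188 CPM, log2 ratios to control of 3.78 (3.47 to 4.11) and 5.10 (4.60 to 5.66). In C1q macrophages the same ratios were 0.39 and 0.56, and the difference between the classes was not tested. Without the S100-rich cells the ratios were 3.46 for Ccl3, 3.6 for Ccl4, 1.55 for Cxcl2 and 2.52 for Cxcl3. Of the Cxcr2 ligands, Cxcl1, Cxcl2 and Cxcl3 were also highest in the Ndrg2-KO DC wound. Cxcl2 was the most abundant, at 10759, 31441 and 12343 CPM with a ratio of 1.55 (1.51 to 1.59), and Cxcl3 had 834, 5155 and 1672 CPM with a ratio of 2.63 (2.49 to 2.77). Cxcl1 had 1642, 3934 and 1249 CPM, a ratio of 1.26 that was 0.96 in cells with both Arg1 and Mmp12. The promoter windows of all 3 of these genes held the NF-kB letters and that of Ccl3 did not. Whether the letters bear on the levels was not tested. The 2 lower genes were Ppbp, at 83.1, 17.1 and 143 CPM, and Ccl8, at 710, 31.7 and 314 CPM. Both rested on few cells: 1 cell held 95.5% of the Ccl8 UMIs in the control DC wound, and the Ccl8 ratio of -4.49 became -0.49 without the top cells.

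**Figure D5:**
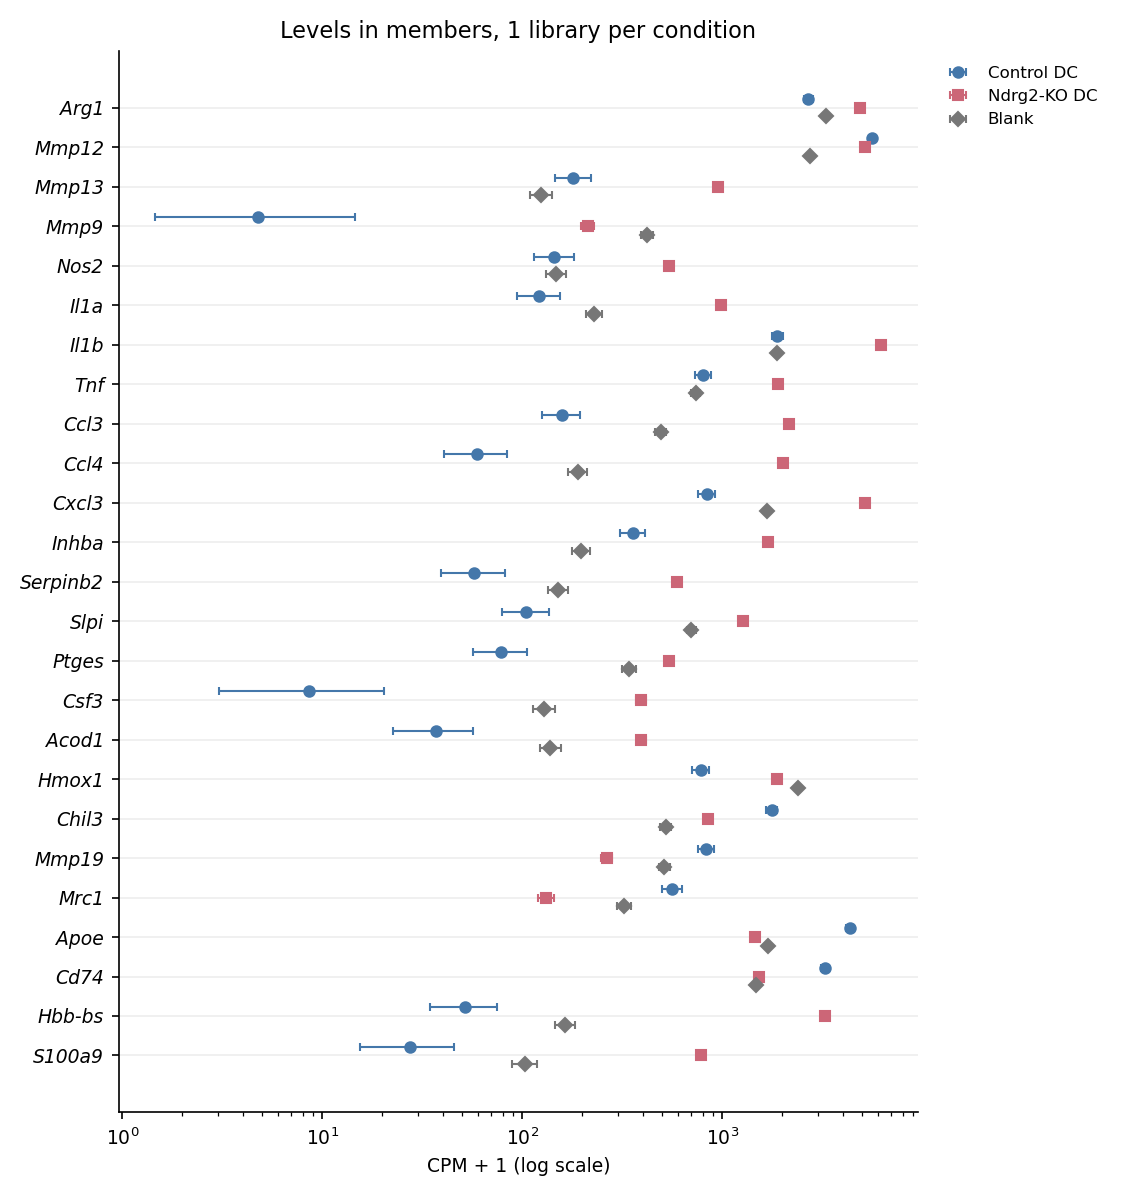
CPM + 1 (x axis, log scale) of selected genes (y axis) in the summed Arg1 Mmp12 macrophages (members) of the control DC, Ndrg2-KO DC and blank wounds, 1 point per library with its exact 95% Poisson interval, which covers counting error only. Mmp13, Nos2, Il1a, Il1b, Tnf, Ccl3, Ccl4, Cxcl3 and Inhba were highest in the Ndrg2-KO DC wound, and Mmp19, Mrc1, Apoe and Cd74 were highest in the control DC wound.

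Among the enzymes of arginine use, Nos2 and Odc1 were higher in the Ndrg2-KO DC wound. Nos2 had 143, 542 and 147 CPM, a ratio to control of 1.92 (1.59 to 2.27). In C1q macrophages, by the levels given above, Nos2 was also more than 2-fold higher than control in the Ndrg2-KO DC wound, and in the blank wound as well. In the control DC wound 65.8% of its UMIs lay in 1 cell, and the ratio was 3.43 without the top cells and 3.82 without the S100-rich cells. Odc1, which makes putrescine from ornithine, had 291, 798 and 272 CPM. Arg1 itself stayed under 2-fold, with a ratio of 0.86 (0.78 to 0.94), and Mmp12 had -0.12. Chil3 and Mrc1 were the 2 lower genes of this list. Mrc1 had 561, 130 and 322 CPM, a ratio of -2.11 to control, against -0.18 in C1q macrophages.

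Of 11 proteases and inhibitors, 3 were higher and 1 was lower. The collagenase Mmp13 had 179, 947 and 123 CPM, with ratios of 2.40 (2.11 to 2.71) to control, 2.24 without the S100-rich cells, and of 2.94 to blank, and C1q macrophages had ratios of 1.90 and 1.59. Undrawn, 23.8%, 31.5% and 15.2% of the cells held an Mmp13 UMI, so the share differed less between wounds than the level. The gelatinase Mmp9 had 2, 767 and 786 UMIs, or 3.78, 211 and 418 CPM, and was thus higher in both other wounds than in the control DC wound, where 1 cell held both UMIs. Mmp19 was the 1 lower protease, at 827, 264 and 513 CPM with a ratio of -1.65, and had -1.41 in C1q macrophages. Serpinb2, an inhibitor of urokinase, had 56.6, 591 and 151 CPM, and 1 cell held 80.0% of its UMIs in the control DC wound, so that its ratio of 3.38 was 5.53 without the top cells.

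Of 14 antioxidant and iron genes, 7 were at least 2-fold higher in the Ndrg2-KO DC wound than in the control DC wound and 6 in the blank wound. Of all genes compared, 6.26% and 2.92% were. The list had medians of 0.97 and 0.70, and 3 and 2 of these antioxidant and iron genes were past 2-fold under every alternative. Haem oxygenase (Hmox1) had 781, 1881 and 2397 CPM, Prdx1 had 1327, 2714 and 2845 CPM and the cystine carrier Slc7a11 had 396, 1093 and 1017 CPM. In C1q macrophages none of the 7 nor of the 6 was past 2-fold, with Hmox1 at 1708, 1241 and 1606 CPM. For Hmox1 and Prdx1 the ratios to control were 1.27 and 1.03 in the Ndrg2-KO DC wound, and 0.97 and 0.75 without the S100-rich cells. MHC class II genes went the other way, with 5 and 4 of 6 at least 2-fold lower than in the control DC wound, against 2.61% and 1.24% of all genes compared. Cd74 had 3250, 1519 and 1478 CPM. The medians of the list were -1.13 and -1.05, and none of these MHC class II genes stayed past 2-fold under every alternative. Among genes induced by interferon, the ubiquitin-like Isg15 had 88.7, 185 and 89.4 CPM and the antiviral enzyme Rsad2 had 3.78, 107 and 38.8 CPM. The control DC level of Rsad2 rests on very few UMIs.

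Several genes with the largest ratios are known from other cell types or rested on single cells. Hbb-bs, a beta globin, had 51.0, 3253 and 163 CPM, a ratio of 6.0 to control. S100a8 had 194, 1445 and 383 CPM, with a ratio of 2.89 in these cells and 3.05 in C1q macrophages. The interleukin gene Il5 had 203 UMIs in the Ndrg2-KO DC wound, 92.6% of them in 1 cell, and 0 UMIs in the control DC wound. Csf3, the granulocyte colony-stimulating factor, had 4, 1422 and 241 UMIs, all 4 in 1 cell, and was found in 0%, 24.4% and 6.90% of drawn cells and in 0% of T cells without a Lyz2 UMI. Among T cells with any number of Lyz2 UMIs, 0.794%, 0.433% and 0% held it. Gm5483, a cystatin gene with close copies among which reads can be shared, had 0, 500 and 14 UMIs and was at least 24.3-fold higher than the 3-UMI limit in the control DC wound. The leukocyte protease inhibitor Slpi had 104, 1271 and 699 CPM, with a ratio to control of 3.61 (3.23 to 4.03) that was 2.61 without the S100-rich cells. The lipase Lpl was lower, at 727, 103 and 589 CPM, with 1 control cell holding 59.0% of its UMIs and a ratio of -2.82 that was -1.74 without the top cells.

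Between the blank and the control DC wound, 124 of 2978 genes differed at least 2-fold (4.16%), 87 higher (2.92%) and 37 lower (1.24%). Beside Mmp9 and the antioxidant genes, the prostaglandin synthase Ptges had 77.4, 542 and 341 CPM and Acod1, which makes itaconate, had 35.9, 392 and 137 CPM, both above the control DC wound in the other 2 wounds. The genes lower in the blank wound included Chil3, at 1769, 845 and 522 CPM, the vascular growth factor Vegfa, at 546, 346 and 231 CPM, and the immediate early gene Fos, at 502, 237 and 162 CPM. The acute phase protein Saa3, at 742, 285 and 3572 CPM, was highest in the blank wound, where 46.8% of its UMIs lay in 1 cell, and its ratio to control of 2.27 became -0.23 without the S100-rich cells.

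The 3 comparisons share libraries and are not independent. Between the Ndrg2-KO DC and the blank wound, 172 of 4959 genes differed at least 2-fold (3.47%), 114 higher (2.3%) and 58 lower (1.17%). The median gene had a log2 ratio of -0.11, and median-ratio scaling gave 154 higher and 36 lower. Chemokines were 7 higher and 2 lower of 15, with 7 of the higher and 1 of the lower past 2-fold under every alternative, and cytokines and growth factors were 9 higher and 2 lower of 19, with 8 of the higher past 2-fold under every alternative and both lower ones past it under each alternative that gave a value. The 2 lower cytokines were Pdgfb and Igf1, the insulin-like growth factor, which had 37.8, 7.71 and 43.6 CPM. No antioxidant, MHC class II or lysosome gene was past 2-fold in this comparison. The osteoclast genes were under 2-fold between the Ndrg2-KO DC and control DC wounds as well, 0 of 5, as were the 23 lysosome genes.

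The same rule was applied to the cultured DCs of the series, which are another experiment. It took 915 of 7257 untreated DCs (12.6%, 11.9 to 13.4%), 101 of 8825 DCs given vitamin D3 (1.14%, 0.933 to 1.39%) and 2474 of 7969 Ndrg2-KO DCs (31.0%, 30.0 to 32.1%). The untreated and vitamin D3 cells passed almost entirely through Mmp12, with Arg1 at 11.8 and 30.2 CPM. Of the 2474 Ndrg2-KO DCs that passed, 1713 held both genes. All 2474 together had 862 CPM of Arg1 and 8681 CPM of Mmp12. Nos2 was near 0 in the cultured cells, at 0.187, 3.67 and 2.29 CPM, and Mmp13 was at 4.64, 79.9 and 57.3 CPM, both below the Arg1 Mmp12 macrophages of each wound. The dendritic cell markers summed to 1.89, 3.30 and 35.1 CPM in the Arg1 Mmp12 macrophages of the control DC, Ndrg2-KO DC and blank wounds. Whether any of the wound cells came from the gels was not tested.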

How the data were processed

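Droplet libraries (10x Chromium 3' chemistry) were analysed from wound tissue (3 libraries) and cultured DCs (3 libraries), 1 per condition. The deposited values were UMI counts per gene and cell for 31053 genes, which the authors made with Cell Ranger (per the file headers 6.0.0 for wounds and 3.1.0 for DCs). The submitters' notes also name Seurat 3.1.1 and the build mm9, while the study's methods name a later mouse build; whether the mice of a group were pooled into its library is not given in the sources used here. Cells were filtered with the study's limits, its limit of 300 unique transcripts being read as 300 genes. This kept 11032 of 14276 wound barcodes, somewhat more than the study states. Read as 300 UMIs, it would keep 13852, with the same number of Arg1 Mmp12 macrophages in each wound (511 in all) and lower shares. The deposited counts were not changed.

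UMIs were summed over cells of a class and library and scaled to CPM. Log2 ratios were taken from the sums, with exact conditional binomial intervals, and shares had exact Clopper-Pearson intervals; all cover counting error only. Genes with at least 100 UMIs in both sums together were compared, and a difference was counted at 2-fold or more; against other classes or subsets, the same way in all 3 wound libraries. No test was run, since cells are not replicates of a wound and the cells were chosen by their values. The ratio interval was tested on simulated data. Only where a fold is given as at least a value was a gene with 0 UMIs set at a floor of 3 UMIs. The counts over all genes used no floor, so a gene with 0 UMIs on either side counted there as past 2-fold.

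Doublets were scored with Scrublet (scanpy 1.11.5). Its own threshold marked fewer cells than a working caller would, so doublets were kept, and the top 6% of scores in each library were left out as an alternative. Cells were drawn without replacement to 3000 or 1000 UMIs. T cells (at least 3 UMIs of Cd3d, Cd3e, Cd3g and Trac, no Lyz2) served as cells that should lack macrophage genes. C1q macrophages and Ly6c2 Ccr2 monocytes were set by UMI limits in the same cells, the monocytes with at least 2 Ly6c2 and 1 Ccr2 UMIs and under 5 UMIs of Arg1 and Mmp12.

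Named genes were those of 342 listed genes (341 found), the genes of the rule and, for each comparison, the genes with the largest ratios either way among those with at least 200 UMIs in one sum, without mitochondrial and ribosomal protein genes (10 per direction against classes, 8 between wounds); genes of both kinds came to 385, of which some were only counted. The members and lists were chosen with earlier results of these data known. Alternatives changed the rule's limits, the minimum of UMIs, the scaling, the averaging over cells, the doublets and the C1q class. Those leaving out the top cell of each gene, erythroid-rich or S100-rich cells, keeping only cells with both genes, or using T cells with any number of Lyz2 UMIs, were added after seeing the data, as were the promoter letters searched. Versions were Python 3.11.15, NumPy 2.4.6, pandas 2.3.3, SciPy 1.17.1 and matplotlib 3.10.9, with GENCODE M21 and RefSeq for positions. The full count of the interferon-stimulated genes is not reported here.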

Additional observations from a re-analysis of the deposited data

How the results depend on the processing

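The share of Arg1 Mmp12 macrophages in the 3 wounds kept its order (Ndrg2-KO DC, blank, control DC) under each alternative with a limit on C1q. With under 10 C1q UMIs it was 2.93% in the control DC wound and 5.17% in the blank wound; with no C1q limit it was 9.34%, 11.2% and 13.4% in the control DC, Ndrg2-KO DC and blank wounds; and with cells drawn to 3000 UMIs it was 3.16%, 6.65% and 5.11%, where a lower depth also lets cells fall under the C1q limit. The number of genes at least 2-fold apart between wounds (Ndrg2-KO DC against control DC, blank against control DC, Ndrg2-KO DC against blank) was 173, 75 and 106 without the S100-rich cells, which leaves fewer cells and genes compared. It was 658, 274 and 307 with a minimum of 50 UMIs and 126, 37 and 69 with a minimum of 400 UMIs. Over all values and alternatives, 7021 stayed within the counting interval (ratios to other classes, within the range over libraries; counts, within 1.5 times), 1622 moved by more and 7 past 2-fold changed sign. Those 7 were Cytip between the Ndrg2-KO DC and control DC wounds (0.83 on the log2 scale in cells with both Arg1 and Mmp12); Ms4a6b between the Ndrg2-KO DC and blank wounds (0.021 in the same cells); and, between the blank and control DC wounds, Ccl8 (3.39 with at least 10 UMIs of Arg1 and Mmp12, 1.85 without the top cells, 3.66 in cells with both genes), Hbb-bs (-0.16 without likely doublets) and Saa3 (-0.23 without the S100-rich cells). For Ccl8, 1 cell held 95.5% of the control UMIs; the cause of the other changes was not tested. No paired analysis was possible because each condition was 1 library and no result comes from a test. The control DC values rest on 42 cells, the fewest of the 3 wounds.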

Other observations

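Of 20 transcription factors, none was at least 2-fold higher in Arg1 Mmp12 than in C1q macrophages in all 3 libraries and 3 were lower, Maf, Irf4 and Atf3, where 1.58% of all genes compared were higher and 5.77% lower. The stress-induced Atf3 had 136, 167 and 147 CPM in the control DC, Ndrg2-KO DC and blank wounds against 534, 581 and 436 CPM in C1q macrophages. Of 18 growth factor and cytokine receptors, only the semaphorin and vascular growth factor receptor Nrp1 was past 2-fold, lower at 30.2, 23.4 and 31.9 against 167, 180 and 128 CPM. Of 12 immediate early and heat shock genes, 3 were lower, Egr1, Hspa1a and Atf3, and of 7 cell cycle genes 3 were lower, among them Top2a, which had 1, 18 and 8 UMIs in all.

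Between wounds, of 12 immediate early and heat shock genes, 4 (Fos, Jun, Egr1 and Ier2) were at least 2-fold lower in the blank than in the control DC wound, as were 1.24% of all genes compared. Under every alternative 2 of the 4, Fos and Egr1, stayed past 2-fold. Egr1 had 357, 350 and 112 CPM in the control DC, Ndrg2-KO DC and blank wounds, and 954, 891 and 408 CPM in C1q macrophages, so the blank wound was lowest in both classes.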
